A study of Mus musculus with 15 samples.

Results

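Hepatic Activin A was compared with green fluorescent protein (GFP) in livers of male C57BL/6J mice on a NASH diet, using 6 of the 15 liver RNA sequencing libraries of the study. Members were chosen by label: the 3 libraries of livers given an adeno-associated virus of serotype 8 (AAV8) that carried Activin A, and the 3 of livers given the same kind of virus with GFP. In both groups the transgene was under the thyroxine binding globulin (TBG) promoter, which is active in hepatocytes, and both groups had eaten a diet that leads to non-alcoholic steatohepatitis (FPC diet) with sugar water for 16 weeks. The sources used here do not give the animals' age, the dose of virus or the time between injection and harvest, and the labels do not say whether each library came from a separate animal. A further group of 3 libraries, from GFP livers on standard chow and normal water for 16 weeks, is used below for levels only. The remaining 6 libraries, from livers with a hairpin against Gpnmb or a scrambled hairpin, enter only an alternative fit of all groups.

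Activin A is a secreted dimer of the inhibin beta A subunit, the product of Inhba, and a member of the TGF-beta (transforming growth factor beta) family. It binds type II activin receptors, which recruit the type I receptor ACVR1B, and the complex phosphorylates SMAD2 and SMAD3, which enter the nucleus with SMAD4. Follistatin binds activin and neutralises it, and the inhibitory SMADs and PMEPA1 dampen the signal inside the cell. Hepatocytes also make the related beta C and beta E subunits. The steatohepatitic liver holds fat-laden hepatocytes, lipid-associated macrophages recruited from blood monocytes, activated stellate cells that lay down collagen, and reactive bile duct cells.

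Activin A livers had lower levels of many transcripts of lipid-associated macrophages, monocytes, antigen presentation and interferon response than GFP livers on the same diet. Some transcripts of collagen and injured epithelium were lower too, while of 13 Kupffer cell genes 1 rose and 1 fell. Of 26 collagens and crosslinking enzymes 7 fell and 1 rose, but only 2 fell without Activin A library 3. A smaller set of genes was higher, including the solute carriers Slc13a4 and Slc13a3 and some secreted factors. Solute carriers as a list were not higher, with a median log2 fold change of -0.074 over 35 genes. Of 14598 genes tested, 242 rose and 564 fell (edgeR's quasi-likelihood test, Benjamini-Hochberg adjusted p under 0.05), which is 1.66% and 3.86% of the genes tested, or 5.52% in all. Counts of called list members below are to be read against these shares. At least 2-fold changes were seen for 87 of the risers and 354 of the fallers. The 2 groups did not overlap in 25.9% of the genes tested and in 805 of the 806 called genes. Lack of overlap is therefore given below only as a description of called genes, and adds no support to a call. The median log2 fold change over all genes tested was 0.0042. Libraries held 16331973 to 20530242 counts. The first principal component (42.0% of the variance) separated the groups, and the second (22.5%) separated GFP library 3 from the other GFP libraries. Leaving out 1 library at a time gave 248 calls (without Activin A library 3) to 1435 (without GFP library 3), and 221 of the 806 genes remained called without each of the 6 libraries. The other counts were 293 and 372 without Activin A libraries 1 and 2, and 591 and 627 without GFP libraries 1 and 2. Below, a call that was lost when 1 library was left out is marked as such with the highest adjusted p. Levels are given as CPM (counts scaled to library totals that were adjusted with TMM normalization factors), in the order of libraries 1, 2 and 3. Log2 fold changes are Activin A over GFP with their standard error (SE, n = 3 per group), and values with ± are always such log2 fold changes. In bulk liver RNA, fewer cells of a type and less RNA per cell cannot be told apart. The gene lists counted below were chosen with earlier results of these data known. Their called shares thus describe the lists and are no independent test.

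**Figure D1:**
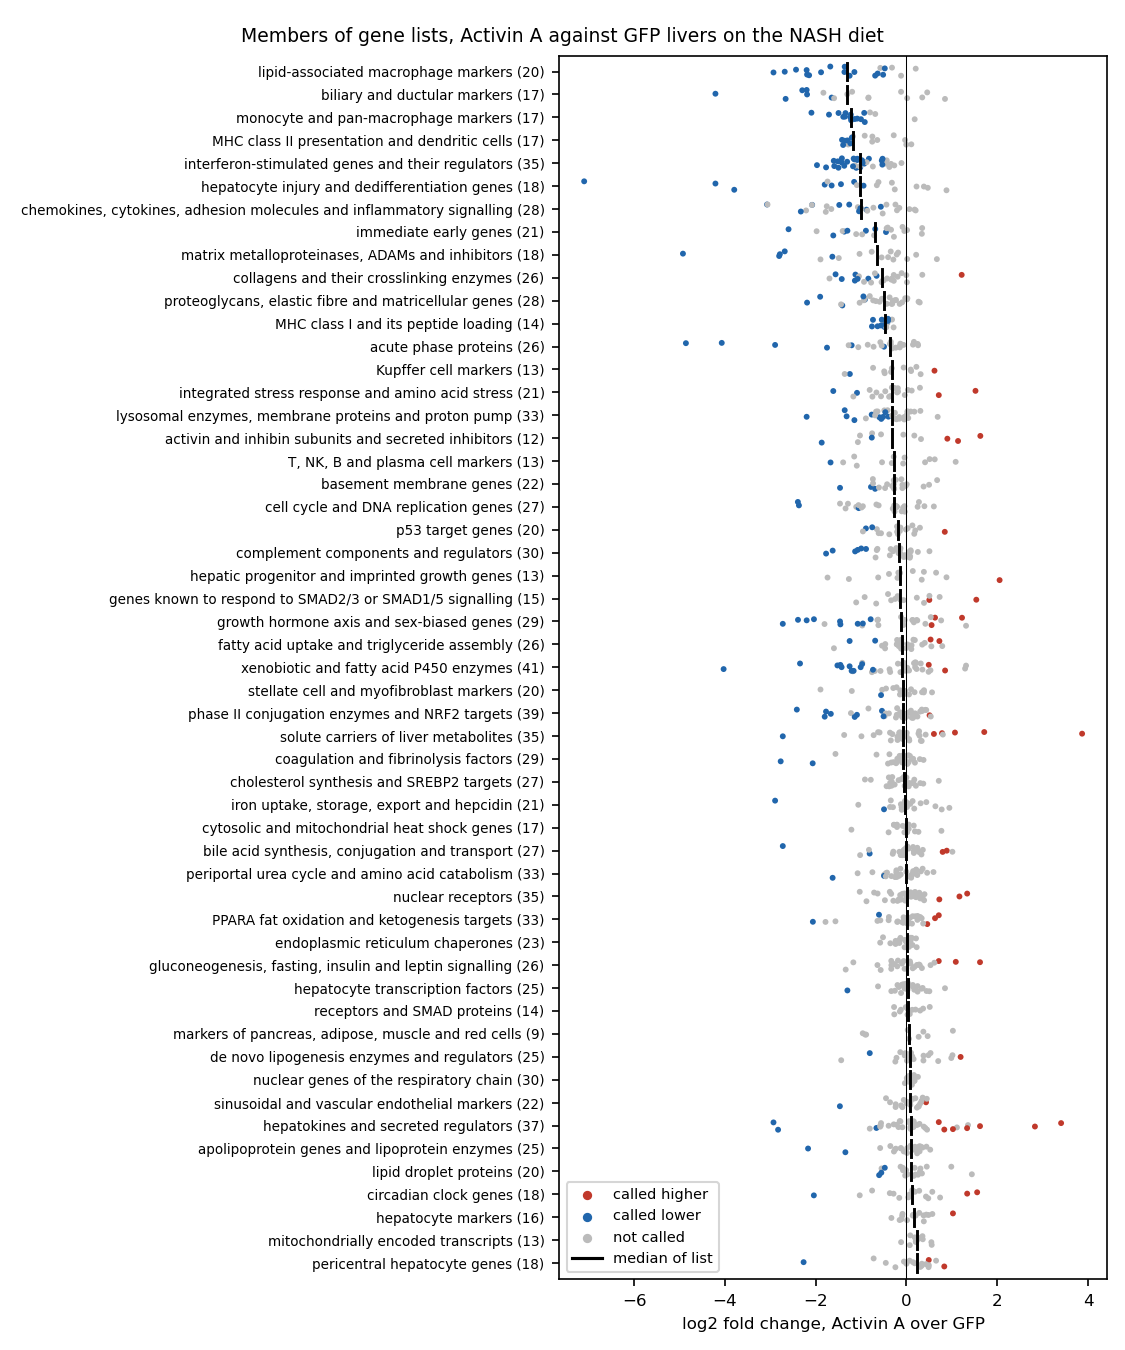
Log2 fold change (Activin A over GFP, horizontal axis) of every tested member of the gene lists with at least 8 tested members, 1 row per list with the number tested in brackets, sorted by median (black bar). Red points were called higher, blue points lower and grey points were not called. The lipid-associated macrophage, biliary, monocyte, MHC class II and interferon lists have the lowest medians, and the respiratory chain and mitochondrial lists hold no called gene.

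The expressed subunit itself was higher in Activin A livers. Inhba (ENSMUSG00000041324, GRCm38 chromosome 13, 16011851 to 16031621) stood at 25.7, 23.9 and 25.2 CPM in the Activin A libraries and at 8.11, 7.92 and 8.12 CPM in the GFP libraries, so that every Activin A library lay about 3-fold above every GFP library. Its log2 fold change was 1.63 ± 0.11, edgeR adjusted p = 0.000192, and its level in chow GFP livers was 12.7, 10.9 and 9.45 CPM. The sources used here do not say if transgene reads count towards Inhba, and the annotation holds a gene on the opposite strand within it (Gm48444). Inhbc, which encodes the inhibin beta C subunit made by hepatocytes, rose from 47.8, 42.5 and 54.3 CPM to 93.3, 83.9 and 93.2 CPM (0.90 ± 0.11, edgeR adjusted p = 0.00247). Fst, which encodes follistatin, rose from 4.28, 4.97 and 5.38 CPM to 11.1, 9.37 and 11.7 CPM (1.14 ± 0.17, edgeR adjusted p = 0.00683). The groups did not overlap for either gene, and both remained called without any 1 library. Inhbe, the other subunit gene of hepatocytes, had a log2 fold change of 0.17 ± 0.13 (edgeR adjusted p = 0.52), and Inhbb, which encodes the beta B subunit, -1.07 ± 0.36 (edgeR adjusted p = 0.13). Tgfb1 and Tgfb2, which encode TGF-beta ligands, fell, at -0.76 ± 0.18 (edgeR adjusted p = 0.0394) and -1.87 ± 0.32 (edgeR adjusted p = 0.00975). The call of Tgfb1 was lost without Activin A library 1, 2 or 3 or GFP library 1 or 2 (edgeR adjusted p up to 0.112). The call of Tgfb2 was lost without Activin A library 3 (edgeR adjusted p up to 0.0629). In all, of 12 tested ligand, subunit and inhibitor genes 3 rose and 2 fell, against 1.66% and 3.86% of all genes tested. With libraries left out, the number of fallers was 1 without Activin A library 1 or 2 or GFP library 1, 0 without Activin A library 3, and 5 without GFP library 3.

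On the list of receptors and SMAD proteins no gene passed the edgeR test or was called by DESeq2 or limma-voom. An unadjusted edgeR p under 0.05 was found for 2 of them. Smad6 is counted below, with the SMAD-responsive genes. Among the 14 tested, log2 fold changes ran from -0.27 for Acvr1b, the type I activin receptor (edgeR adjusted p = 0.334), to 0.51 for Acvr2b, a type II receptor (edgeR adjusted p = 0.289), and Smad3 had 0.074 ± 0.17 (edgeR adjusted p = 0.872). For these genes the number of risers was 1 without GFP library 3. Of 15 genes known to respond to SMAD signalling 2 rose and 0 fell. Pmepa1, a feedback inhibitor that binds receptor-activated SMADs, stood at 30.5, 22.6 and 26.2 CPM against 8.83, 12.3 and 6.02 CPM, with no overlap (1.54 ± 0.23, edgeR adjusted p = 0.0058). Smad6, an inhibitory SMAD, had 0.50 ± 0.12 (edgeR adjusted p = 0.0435). The call of Smad6 was lost without Activin A library 1, 2 or 3 or GFP library 1 or 2 (edgeR adjusted p up to 0.171). Smad7, the other inhibitory SMAD, had 0.51 ± 0.13 (edgeR adjusted p = 0.0521) and was not called. Ctgf (-0.67 ± 0.24, edgeR adjusted p = 0.16) and Id1 (-0.34 ± 0.25, edgeR adjusted p = 0.522), which respond to TGF-beta or bone morphogenetic proteins in many cells, were not called either. Ski, a SMAD co-repressor named after its values were seen, stood at 72.3, 64.8 and 68.8 CPM against 38.8, 41.9 and 37.3 CPM (0.80 ± 0.094, edgeR adjusted p = 0.00213). Ski was called with each library left out. Among the SMAD-responsive genes the number of risers was 1 without Activin A library 1, 2 or 3 or GFP library 1 or 2, while the number of fallers was 1 without Activin A library 2, and 2 without GFP library 3.

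Hepcidin, the liver hormone that holds iron inside cells, is controlled through SMAD proteins. Its gene Hamp stood at 1053, 743 and 945 CPM in Activin A libraries and 482, 781 and 495 CPM in GFP libraries, a log2 fold change of 0.64 ± 0.20 that was not called (edgeR adjusted p = 0.102). Bmp6, its upstream ligand, had 0.78 ± 0.22 (edgeR adjusted p = 0.0712). Of 21 tested genes of iron handling, 0 rose and 2 fell (9.52% called, against 5.52% of all genes tested). The latter were Lcn2, which binds iron-carrying siderophores, and Hpx, which encodes the heme-binding protein hemopexin (-0.49 ± 0.12, edgeR adjusted p = 0.042). The call of Hpx was lost without Activin A library 1, 2 or 3 or GFP library 2 (edgeR adjusted p up to 0.173). The call of Lcn2 was lost without Activin A library 1, 2 or 3 (edgeR adjusted p up to 0.0659). Over the iron genes the number of risers was 1 without GFP library 2, and 3 without GFP library 3, while the number of fallers was 0 without Activin A library 1, 2 or 3, and 1 without GFP library 2.

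A sulfate transporter and secreted factors were among the genes called higher. Slc13a4 (ENSMUSG00000029843, GRCm38 chromosome 6, 35267957 to 35308131), a sodium-dependent sulfate transporter, stood at 30.2, 21 and 22 CPM in the Activin A libraries, 1.47, 1.45 and 2.1 CPM in the GFP libraries and 0.608, 0.604 and 0.276 CPM in the chow libraries. All Activin A libraries lay above all of the others (3.87 ± 0.22, edgeR adjusted p = 6.94e-05). Its relative Slc13a3, which carries dicarboxylates such as succinate, rose from 51.5, 29.9 and 42.4 to 145, 125 and 137 CPM (1.72 ± 0.18, edgeR adjusted p = 0.00113). Slc13a5, the citrate transporter of the same family, did not pass (0.32 ± 0.33, edgeR adjusted p = 0.669). Enho, which encodes the secreted peptide adropin, rose from 2.23, 2.13 and 1.77 to 22.4, 18.7 and 24.5 CPM (3.41 ± 0.17, edgeR adjusted p = 5.53e-05), and stood at 57.9, 20.2 and 51.2 CPM on chow. It overlaps Dnaic1 on the opposite strand. Prok1, which encodes the secreted prokineticin 1, rose from 0.758, 1.59 and 0.968 to 7.43, 9.42 and 6.89 CPM (2.83 ± 0.30, edgeR adjusted p = 0.00133). Both secreted factors were separated between the groups, as were 805 of the 806 called genes.

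Fsd2, which encodes a fibronectin type III and SPRY domain protein, rose from 0.803, 0.628 and 1.08 to 10.3, 7.14 and 9.72 CPM (3.43 ± 0.28, edgeR adjusted p = 0.000439), and Nebl, which encodes the actin-binding protein nebulette, from 2.1, 2.17 and 1.13 to 16.8, 8.39 and 11.4 CPM (2.74 ± 0.32, edgeR adjusted p = 0.00206). Mycn, a transcription factor of the MYC family, rose from 1.29, 0.918 and 1.29 to 3.93, 8.22 and 5.68 CPM (2.34 ± 0.33, edgeR adjusted p = 0.00483). Peg3, a paternally expressed imprinted zinc finger gene, rose from 12.9, 8.84 and 28.3 to 67.8, 68.1 and 71.2 CPM (2.05 ± 0.33, edgeR adjusted p = 0.00796), and its log2 fold change was 2.67 without GFP library 3. It was the only called gene among 13 hepatic progenitor and imprinted growth genes tested (7.69%, against 5.52% of all genes tested). Afp, the fetal counterpart of albumin, had 0.88 ± 0.25 (edgeR adjusted p = 0.0746). Chil1, a chitinase-like secreted protein, rose from 0.713, 0.821 and 0.699 to 3.39, 2.63 and 3.08 CPM (2.01 ± 0.31, edgeR adjusted p = 0.0072), and the pseudogene Serpina4-ps1 from 36.1, 85.8 and 15.2 to 483, 429 and 455 CPM (3.32 ± 0.49, edgeR adjusted p = 0.0058; log2 fold change 4.15 without GFP library 2). For the progenitor and imprinted genes the number of risers was 3 without GFP library 3, while the number of fallers was 1 without GFP library 3. GFP library 3 was the highest GFP library for Peg3 and GFP library 2 for Serpina4-ps1. Reads of Serpina4-ps1 could come from related serpin genes.

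The risers with the smallest p-values included further genes of hepatocyte metabolism. Csad, which makes the taurine precursor hypotaurine from cysteine sulfinic acid, rose from 480.1, 439 and 423 to 880.1, 873 and 909 CPM (0.99 ± 0.099, edgeR adjusted p = 0.00113). Adora1, the adenosine A1 receptor, rose from 34.3, 36.2 and 30.6 to 88.5, 84.3 and 91.6 CPM (1.39 ± 0.099, edgeR adjusted p = 0.000192). Hsd17b6, an enzyme of androgen and retinoid metabolism, rose from 105, 139 and 115 to 325, 427 and 382 CPM (1.66 ± 0.14, edgeR adjusted p = 0.000539). None of these 3 genes overlapped between groups. Csad overlaps Zfp740, and Adora1 overlaps Mybph, each on the opposite strand. Mug2, a murinoglobulin protease inhibitor with close paralogs, rose by 1.34 ± 0.14 (edgeR adjusted p = 0.00113), and Mtmr10, of the myotubularin family, had 0.97 ± 0.089 (edgeR adjusted p = 0.000713).

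**Figure D2:**
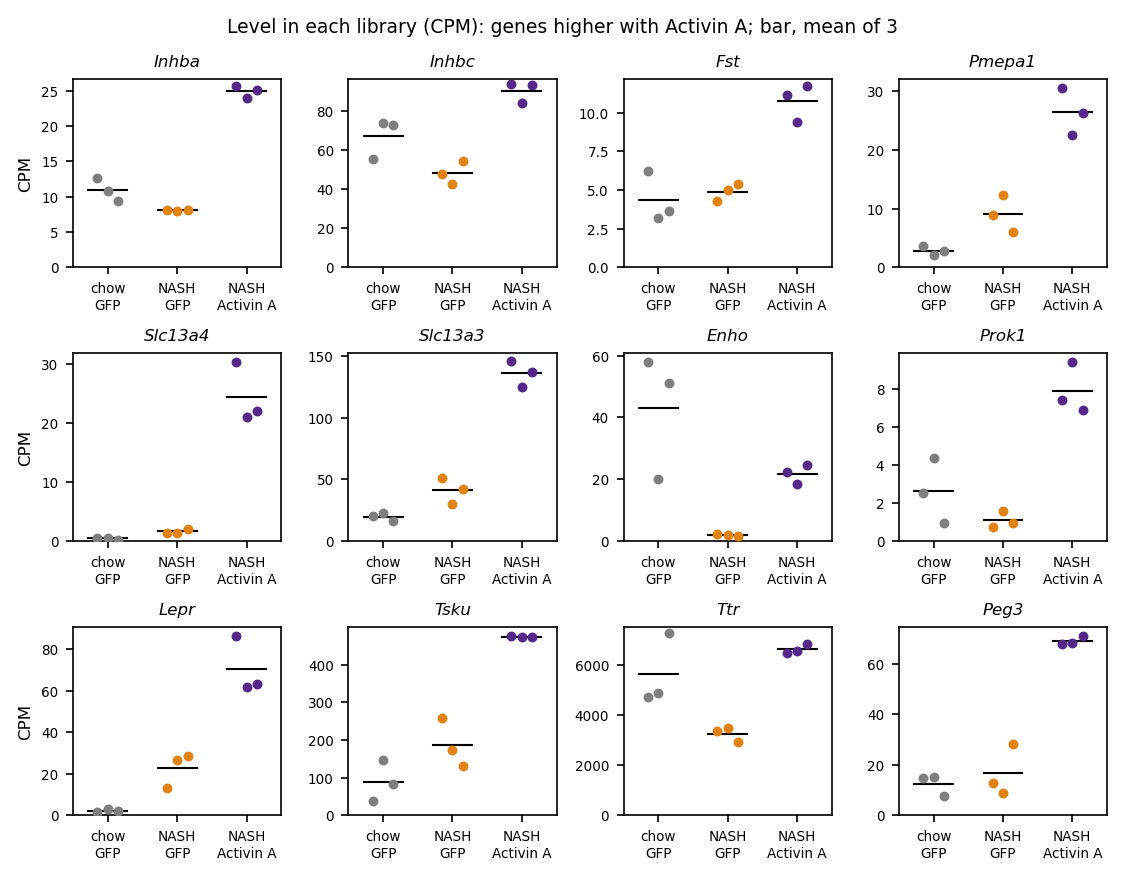
CPM (vertical axes, from 0) in each library of chow GFP (grey), NASH diet GFP (orange) and NASH diet Activin A (purple) livers for 12 genes called higher; bars are means of 3 libraries. Inhba reads 25.7, 23.9 and 25.2 CPM in the Activin A libraries against 7.92 to 8.12 CPM in the GFP libraries, and no panel shows an overlap between the NASH diet groups.

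Genes of glucose storage and leptin and insulin action were higher in part. Lepr, the leptin receptor, whose soluble form is released from liver, rose from 13.1, 26.9 and 28.7 to 86.2, 61.8 and 63.2 CPM (1.62 ± 0.26, edgeR adjusted p = 0.0077). Ppp1r3b, which targets protein phosphatase 1 to glycogen, rose from 231, 181 and 152 to 361, 445 and 394 CPM (1.09 ± 0.16, edgeR adjusted p = 0.00496). Gys2, the liver glycogen synthase, had 0.71 ± 0.12 (edgeR adjusted p = 0.00887). The call of Gys2 was lost without Activin A library 1 or 3 (edgeR adjusted p up to 0.0601). Of 26 tested members 3 rose and 0 fell, and the gluconeogenic genes G6pc (0.28 ± 0.19, edgeR adjusted p = 0.478) and Pck1 (-0.19 ± 0.14, edgeR adjusted p = 0.543) were not called. In the glucose list the number of fallers was 2 without GFP library 1 or 3, and 1 without GFP library 2.

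Secreted liver factors held 7 risers and 3 fallers of 37 tested. Beside Enho, Prok1 and Lepr the risers included Tsku, which encodes the secreted tsukushi, at 476, 472 and 472 CPM against 258, 174 and 129.6 CPM (1.34 ± 0.21, edgeR adjusted p = 0.00721), and Ttr, the thyroxine carrier transthyretin, at 6506, 6594 and 6842 CPM against 3362, 3485 and 2939 CPM (1.03 ± 0.11, edgeR adjusted p = 0.00119). Lect2, a chemotactic hepatokine, had 0.83 ± 0.17 (edgeR adjusted p = 0.0232), and Fgf21, a fasting and stress hormone, 0.71 ± 0.15 (edgeR adjusted p = 0.0257). The call of Lect2 was lost without Activin A library 1, 2 or 3 (edgeR adjusted p up to 0.111). The call of Fgf21 was lost without Activin A library 1, 2 or 3 or GFP library 1 or 2 (edgeR adjusted p up to 0.119). The fallers were Gpnmb (given with the macrophage genes), Igfbp3 (-0.66 ± 0.14, edgeR adjusted p = 0.0223) and Nrg1, which encodes the ERBB ligand neuregulin 1 and stood at 0.929, 0.571 and 1.03 CPM against 6.38, 6.67 and 4.95 CPM (-2.83 ± 0.30, edgeR adjusted p = 0.0012). The call of Igfbp3 was lost without Activin A library 1, 2 or 3 or GFP library 1 or 2 (edgeR adjusted p up to 0.114). Among secreted factors the number of risers was 13 without GFP library 3, and the number of fallers was 8 without GFP library 3. Angptl8, an inhibitor of lipoprotein lipase, had 1.36 ± 0.38 and was not called (edgeR adjusted p = 0.0694).

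Among regulators, the clock repressor Cry1 rose from 8.69, 8.74 and 8.5 to 31.4, 17.3 and 27.8 CPM (1.56 ± 0.20, edgeR adjusted p = 0.00299). The groups did not overlap. Bhlhe41, another clock repressor, had -2.04 ± 0.45 (edgeR adjusted p = 0.0313). The call of Bhlhe41 was lost without Activin A library 1 or 3 or GFP library 2 (edgeR adjusted p up to 0.131). Of 18 clock genes 2 rose and 1 fell, while Arntl (0.48 ± 0.55, edgeR adjusted p = 0.709) and Nr1d1 (-1.03 ± 0.50, edgeR adjusted p = 0.294), core clock genes, were not called. For clock genes the number of risers was 4 without GFP library 3, while the number of fallers was 0 without Activin A library 1 or 3 or GFP library 2. The sources used here do not state the time of day at harvest. Esr1, the estrogen receptor alpha gene, rose from 13.5, 18.6 and 17.4 to 44.5, 36.1 and 30.7 CPM (1.17 ± 0.17, edgeR adjusted p = 0.00487), and Nr1i3, the xenobiotic sensor CAR, had 0.73 ± 0.13 (edgeR adjusted p = 0.0132). The call of Nr1i3 was lost without Activin A library 1 or 3 (edgeR adjusted p up to 0.0804). Of 35 nuclear receptor genes 3 rose and 0 fell (8.57% called, against 5.52% of all genes tested). Of 25 hepatocyte transcription factor genes 1 fell and 0 rose (4.0% called). Hnf4a had -0.086 ± 0.17 (edgeR adjusted p = 0.839). For these factors the number of risers was 1 without GFP library 2, and 3 without GFP library 3, while the number of fallers was 2 without GFP library 2.

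Lipid-associated macrophages, which express a program of lipid uptake and lysosomal genes around dying fat-laden hepatocytes, had lower markers in Activin A livers. Of 20 markers tested 16 fell and 0 rose, and the median log2 fold change was -1.3. Gpnmb, a transmembrane glycoprotein of these cells, stood at 5.68, 3.37 and 2.96 CPM in Activin A libraries, 40.8, 26.1 and 24.8 CPM in GFP libraries and 0.243, 0.151 and 0.483 CPM in chow libraries (-2.93 ± 0.27, edgeR adjusted p = 0.00073). Mmp12, the macrophage elastase, stood at 3.88, 2.86 and 2.84 CPM against 23.2, 17 and 21.4 CPM (-2.68 ± 0.19, edgeR adjusted p = 0.000192). Lgals3, which encodes galectin-3, stood at 7.05, 6.74 and 5.68 CPM against 33.3, 32.3 and 20.4 CPM (-2.14 ± 0.20, edgeR adjusted p = 0.00073). For all 3 genes the Activin A libraries lay below the GFP libraries and above the chow libraries. Log2 fold changes were -1.68 ± 0.18 for Itgax (CD11c), -1.37 ± 0.16 for Tyrobp (the adaptor DAP12), -2.19 ± 0.26 for Spp1 (osteopontin) and -2.2 ± 0.35 for Atp6v0d2 (a proton pump subunit of macrophages), with edgeR adjusted p-values of 0.00135, 0.00213, 0.00224 and 0.0077. Trem2, the lipid receptor that defines these cells, stood at 4.04, 1.14 and 3.2 CPM against 10.8, 10.4 and 9.74 CPM (-1.88 ± 0.35, edgeR adjusted p = 0.0139). The call of Trem2 was lost without Activin A library 3 (edgeR adjusted p up to 0.0645). Ctsd (-0.32 ± 0.10, edgeR adjusted p = 0.107) and Lpl (-0.12 ± 0.17, edgeR adjusted p = 0.775) were not called. With libraries left out in turn, the number of fallers was 10 without Activin A library 2, and 9 without Activin A library 3. The markers summed to 1982 to 2026 CPM in Activin A libraries, 2875 to 3152 CPM in GFP libraries and 1117 to 1538 CPM in chow libraries. Gpnmb, Mmp12, Lgals3 and Trem2 made up a small part of these sums, which mostly reflect other members of the list.

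Monocyte and general macrophage markers fell likewise. Mpeg1, the pore-forming perforin-2 gene of macrophages, stood at 49.98, 54.5 and 49.3 CPM in Activin A livers, 180.1, 154 and 167 CPM in GFP livers and 78.4, 51.6 and 49 CPM in chow livers (-1.71 ± 0.10, edgeR adjusted p = 9.07e-05). Ccr2, the chemokine receptor that brings monocytes into tissue, stood at 4.1, 3.83 and 3.68 CPM against 11.4, 9.56 and 9.47 CPM (-1.39 ± 0.17, edgeR adjusted p = 0.00247). Cd14, the co-receptor for bacterial lipopolysaccharide, stood at 2.18, 2.4 and 2.78 CPM against 8.69, 12.9 and 9.79 CPM (-2.09 ± 0.22, edgeR adjusted p = 0.00127). The groups were separated for each of these genes. The log2 fold change was -1.34 ± 0.14 for Lyz2 (lysozyme), -1.08 ± 0.12 for Ptprc (CD45, on leukocytes), -1.22 ± 0.15 for Cybb (the phagocyte oxidase) and -1.35 ± 0.21 for Adgre1 (F4/80), with edgeR adjusted p-values of 0.00127, 0.00167, 0.00247 and 0.00721. In all 14 of 17 fell and 0 rose (median -1.22); Itgam (-0.69 ± 0.47, edgeR adjusted p = 0.489) and Ly6c2 (0.18 ± 0.55, edgeR adjusted p = 0.907) were not called. Sirpa, the receptor for CD47 on phagocytes, and Clec7a, the beta-glucan receptor dectin-1, were among the fallers with the smallest p-values, at -1.31 ± 0.11 (edgeR adjusted p = 0.000539) and -2.1 ± 0.18 (edgeR adjusted p = 0.000539). The markers summed to 228 to 262 CPM in Activin A libraries, 572 to 665 CPM in GFP libraries and 177 to 188 CPM in chow libraries.

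Of 13 Kupffer cell genes, which mark the macrophages resident in liver, 15.4% were called, against 5.52% of all genes tested. Of them 1 fell, Cd5l (-1.25 ± 0.21, edgeR adjusted p = 0.00886), and 1 rose, Fcna (0.62 ± 0.15, edgeR adjusted p = 0.0447). The call of Cd5l was lost without Activin A library 3 (edgeR adjusted p up to 0.0594). The call of Fcna was lost without Activin A library 2 or 3 or GFP library 1 or 2 (edgeR adjusted p up to 0.186). Among the Kupffer genes the number of risers was 0 without Activin A library 2 or 3 or GFP library 1 or 2, and 2 without GFP library 3, while the number of fallers was 0 without Activin A library 3, and 3 without GFP library 2. Clec4f, which defines mouse Kupffer cells, stood at 65.1, 90.5 and 80.6 CPM against 102, 77.8 and 115 CPM and did not pass (-0.32 ± 0.16, edgeR adjusted p = 0.319), and neither did Timd4 (-0.49 ± 0.30, edgeR adjusted p = 0.425) or Vsig4 (-0.34 ± 0.14, edgeR adjusted p = 0.23). The difference between this list and the monocyte markers was not tested. All 14 Kupffer markers with counts, tested or not, summed to 776 to 821 CPM in Activin A libraries, 765 to 954 CPM in GFP libraries and 944 to 968 CPM in chow libraries. Of 33 lysosomal genes 10 fell and 0 rose, with the macrophage cathepsin Ctss at 32.6, 33.5 and 35.5 CPM against 91.4, 89.7 and 71.8 CPM (-1.32 ± 0.11, edgeR adjusted p = 0.000539) and the asparaginyl protease Lgmn at -0.76 ± 0.10 (edgeR adjusted p = 0.00364). Several of these genes are also expressed by other liver cells, and the number of fallers was 4 without Activin A library 1 or 3, and 5 without Activin A library 2. Lamp1 (-0.16 ± 0.096, edgeR adjusted p = 0.425) and Lipa (0.094 ± 0.12, edgeR adjusted p = 0.742) were not called.

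**Figure D3:**
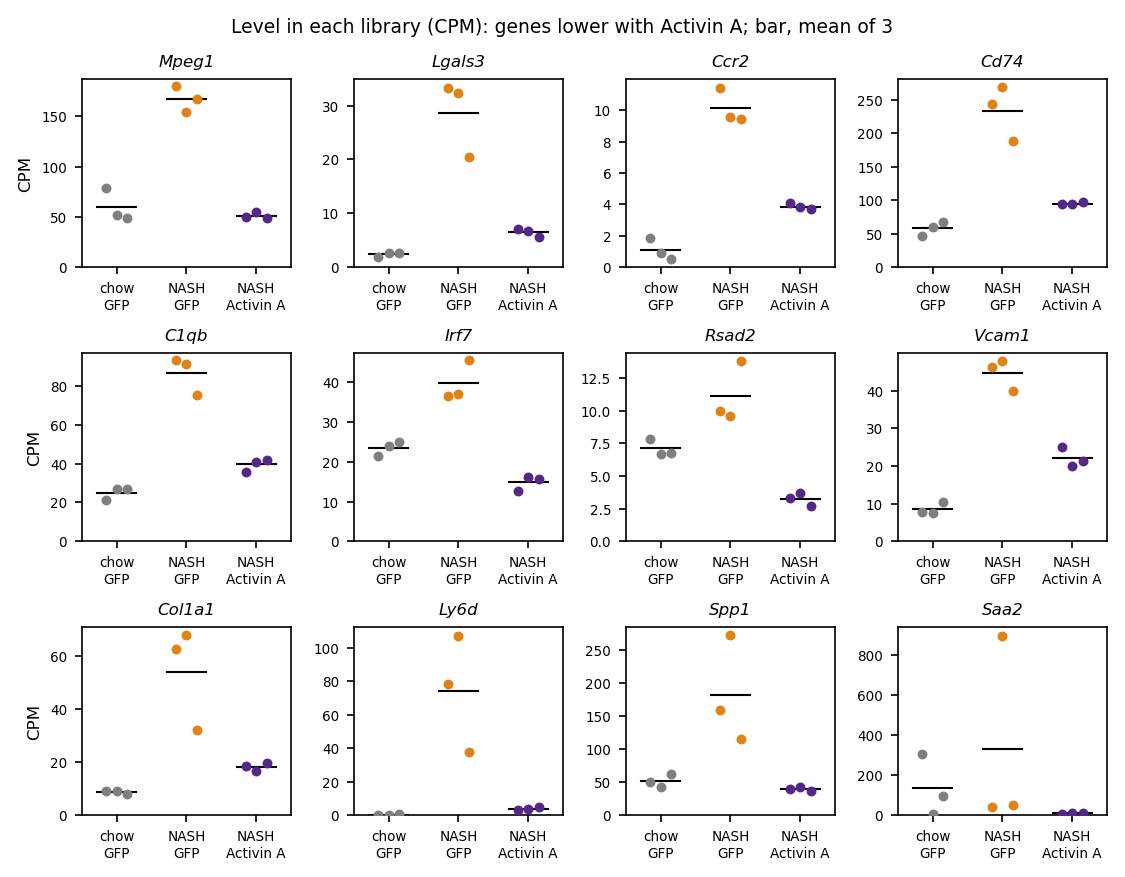
CPM (vertical axes, from 0) in each library of chow GFP (grey), NASH diet GFP (orange) and NASH diet Activin A (purple) livers for 12 genes called lower; bars are means of 3 libraries. The Activin A libraries lie below the GFP libraries on the same diet in every panel, Irf7 and Rsad2 lie below the chow libraries too, and the GFP mean of Saa2 rests on library 2.

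Genes of antigen presentation by MHC class II fell. The invariant chain gene Cd74 stood at 93.7, 94 and 96.8 CPM in Activin A livers, 243, 269 and 188 CPM in GFP livers and 47.3, 59.6 and 67.4 CPM in chow livers (-1.3 ± 0.13, edgeR adjusted p = 0.00113). H2-Aa stood at 37.4, 36 and 38.4 CPM against 105, 117 and 76.4 CPM (-1.42 ± 0.15, edgeR adjusted p = 0.00119). GFP library 3 was the lowest GFP library for both genes and still above every Activin A library. H2-Ab1 and H2-Eb1 had log2 fold changes of -1.36 ± 0.21 and -1.39 ± 0.17 (edgeR adjusted p = 0.00625 and 0.00217). Of 17 class II and dendritic cell genes tested 6 fell, all of them class II genes; the dendritic cell genes Xcr1 (0.11 ± 0.52, edgeR adjusted p = 0.943), Flt3 (-0.75 ± 0.48, edgeR adjusted p = 0.455) and Clec9a (-0.75 ± 0.21, edgeR adjusted p = 0.0712) were not called. Ciita, the class II transactivator, had -0.92 ± 0.24 (edgeR adjusted p = 0.0602). The list summed to 215 to 226 CPM in Activin A libraries, 416 to 633 CPM in GFP libraries and 116 to 146 CPM in chow libraries.

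MHC class I genes and their peptide loading, present in nearly all nucleated cells, fell in part. Of 14 tested 9 fell and 0 rose (median -0.48). The immunoproteasome subunit genes Psmb8 and Psmb9 stood at 11, 10.8 and 11.7 against 18.2, 20.7 and 17.8 CPM (-0.76 ± 0.12, edgeR adjusted p = 0.0077) and at 11, 10.8 and 11.8 against 18.2, 18.4 and 19.2 CPM (-0.74 ± 0.12, edgeR adjusted p = 0.0074). Psmb9 overlaps Tap1 on the opposite strand. B2m, the shared light chain, had -0.32 ± 0.096 and was not called (edgeR adjusted p = 0.0932). For the class I list the number of fallers was 2 without Activin A library 1 or 2, 3 without Activin A library 3, and 5 without GFP library 1. Reads of H2-D1, H2-K1 and the H2-Q and H2-T genes can be shared between these near-identical genes.

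Of 35 interferon-stimulated genes tested 25 fell and 0 rose, with a median of -1.03. Irf7, the transcription factor that amplifies interferon production, stood at 12.7, 16.1 and 15.6 CPM in Activin A livers, 36.6, 37.1 and 45.6 CPM in GFP livers and 21.4, 24 and 24.9 CPM in chow livers (-1.43 ± 0.14, edgeR adjusted p = 0.000922). The Activin A libraries lay below both other groups. Rsad2, which encodes the antiviral protein viperin, stood at 3.33, 3.71 and 2.72 CPM against 9.99, 9.56 and 13.8 CPM (-1.77 ± 0.22, edgeR adjusted p = 0.00236), and Usp18, which removes the ubiquitin-like protein ISG15, at 5.79, 3.71 and 4.95 CPM against 10.8, 15.6 and 17.1 CPM (-1.59 ± 0.23, edgeR adjusted p = 0.00483). Oasl1, Ifit1, Gbp3 and Rtp4 had log2 fold changes of -1.5 ± 0.17, -1.6 ± 0.28, -1.31 ± 0.21 and -0.98 ± 0.14, with edgeR adjusted p-values of 0.00156, 0.0114, 0.00773 and 0.00487. Apol9a and Apol9b, near-identical apolipoprotein L genes outside this list, had log2 fold changes of -2.17 ± 0.21 (edgeR adjusted p = 0.000877) and -1.34 ± 0.21 (edgeR adjusted p = 0.00725). The signal transducer Stat2 (-0.11 ± 0.10, edgeR adjusted p = 0.64) was not called. Irf7 overlaps Phrf1, and Rtp4 overlaps Masp1, on the opposite strand. In the leave-one-out fits the number of fallers was 13 without Activin A library 1, 15 without Activin A library 2, and 9 without Activin A library 3.

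Interferon acts on many of these genes through a promoter element that repeats GAAA, and MHC class II genes carry a Y box. The motif GAAANNGAAA was sought on both strands, as itself or as TTTCNNTTTC, in the 250 bases before the annotated start (RefSeq promoter table, GRCm38.p6). It was found for 7 of the 18 called interferon-stimulated genes in that table and for 3.46% of the 27025 genes it holds. The list was chosen for response to interferon, so a share above that of all genes was built in. List members that were not called were not compared, and a link between the motif and the fall was not tested. Matches may overlap each other, and Irf7 and Oasl1 held none in this window. The 130 bases before the start of 3 of the 7 genes are shown with the matches in capitals, since these genes were among those called lower.
Isg15, GRCm38.p6, minus strand, chr4:156200819-156200948: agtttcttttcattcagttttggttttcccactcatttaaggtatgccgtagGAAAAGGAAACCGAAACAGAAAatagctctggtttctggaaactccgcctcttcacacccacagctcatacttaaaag
Ifit1, GRCm38.p6, plus strand, chr19:34640759-34640888: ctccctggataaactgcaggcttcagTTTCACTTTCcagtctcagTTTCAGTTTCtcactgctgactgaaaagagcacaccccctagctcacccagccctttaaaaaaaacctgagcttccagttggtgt
Rsad2, GRCm38.p6, minus strand, chr12:26456453-26456582: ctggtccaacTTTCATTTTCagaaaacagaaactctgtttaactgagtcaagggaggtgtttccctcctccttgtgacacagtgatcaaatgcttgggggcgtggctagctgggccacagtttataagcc

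Isg15 holds 3 overlapping matches, Ifit1 holds 2 and Rsad2 holds 1. Isg15, the ubiquitin-like modifier, stood at 3.55, 3.65 and 2.48 CPM against 7.09, 8.74 and 6.08 CPM (-1.18 ± 0.24, edgeR adjusted p = 0.0202). The call of Isg15 was lost without Activin A library 1, 2 or 3 or GFP library 2 (edgeR adjusted p up to 0.0985). The Y box letters CTGATTGG, or CCAATCAG on the other strand, were found for 2 of the 4 called class II genes in the table and for 4.43% of the genes it holds; H2-DMa and H2-DMb1 held none in this window. Since class II genes are known for a Y box, this share too is no test of the calls. The 2 promoters are shown with the match in capitals.
H2-Aa, GRCm38.p6, minus strand, chr17:34287824-34287953: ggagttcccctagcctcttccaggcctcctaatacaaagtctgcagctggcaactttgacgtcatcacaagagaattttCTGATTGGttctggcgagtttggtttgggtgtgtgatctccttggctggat
H2-Eb1, GRCm38.p6, plus strand, chr17:34305737-34305866: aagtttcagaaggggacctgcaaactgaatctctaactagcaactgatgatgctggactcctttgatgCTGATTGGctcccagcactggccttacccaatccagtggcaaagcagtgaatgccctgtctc

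Among chemokines, cytokines and adhesion molecules 9 of 28 fell and 0 rose (median -1.01). Il1rn, the antagonist of the interleukin-1 receptor, stood at 2.18, 1.71 and 2.17 CPM against 7.94, 11 and 11.6 CPM (-2.33 ± 0.23, edgeR adjusted p = 0.0011). Vcam1, an adhesion molecule for leukocytes, stood at 25.2, 20.04 and 21.3 CPM against 46.5, 47.9 and 39.9 CPM (-1.01 ± 0.12, edgeR adjusted p = 0.00217). The groups were separated for both, and the chow libraries held 7.78, 7.63 and 10.4 CPM of Vcam1. The myeloid chemokines Ccl6 and Ccl9 had log2 fold changes of -1.26 ± 0.18 and -1.48 ± 0.17 (edgeR adjusted p = 0.00444 and 0.00162), and the interferon-induced T cell chemokine Cxcl9 had -1.15 ± 0.14 (edgeR adjusted p = 0.00224). Ccl2, the ligand of CCR2, had -2.08 ± 0.37 (edgeR adjusted p = 0.012). The call of Ccl2 was lost without Activin A library 1 or 2 (edgeR adjusted p up to 0.0614). The cytokine gene Il1b had -1.07 ± 0.32 and was not called (edgeR adjusted p = 0.0879). For this list the number of fallers was 4 without Activin A library 1.

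C1q genes, expressed by macrophages, fell, and most other complement genes were not called. The subunits of C1q stood at 32, 40.6 and 42.3 against 83, 89.8 and 68.7 CPM for C1qa (-1.07 ± 0.14, edgeR adjusted p = 0.00281) and at 35.8, 41 and 41.8 against 93, 91.1 and 75.2 CPM for C1qb (-1.13 ± 0.11, edgeR adjusted p = 0.00113); C1qc fell by 0.89 ± 0.12 (edgeR adjusted p = 0.00335). C3ar1, the receptor of the fragment C3a, fell by 1.62 ± 0.20 (edgeR adjusted p = 0.00246). Mbl2, a mannose-binding lectin secreted by hepatocytes, fell from 252, 235 and 198 to 105, 118 and 122 CPM (-1.0 ± 0.12, edgeR adjusted p = 0.00213). C3 (-0.36 ± 0.12, edgeR adjusted p = 0.113) was not called; in all 6 of 30 fell and 0 rose, and the number of risers was 1 without GFP library 3. Of 29 coagulation genes 2 fell (6.9% called, against 5.52% of all genes tested). Of these, Plat, which encodes tissue plasminogen activator, stood at 0.273, 0.628 and 0.785 CPM against 3.79, 5.12 and 2.58 CPM (-2.77 ± 0.43, edgeR adjusted p = 0.00721). For coagulation genes the number of risers was 1 without GFP library 2 or 3, while the number of fallers was 1 without Activin A library 1 or 2, and 4 without GFP library 3.

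Acute phase proteins, secreted by hepatocytes in inflammation, fell in 6 of 26 cases and rose in 0. Apcs, the serum amyloid P gene, stood at 31.7, 29.4 and 29.96 CPM against 58.5, 73.8 and 77.7 CPM (-1.21 ± 0.12, edgeR adjusted p = 0.00113) and was separated between groups. The serum amyloid gene Saa2 stood at 8.85, 12 and 13.3 CPM against 43.4, 893 and 53.8 CPM, with GFP library 2 far above the others and the chow libraries at 305, 8.16 and 96.2 CPM. Its log2 fold change of -4.86 ± 1.09 (edgeR adjusted p = 0.0335) was -2.09 without GFP library 2. Its near-identical neighbour Saa1 stood at 21.2, 22.1 and 26.2 against 82, 998 and 85 CPM, and its log2 fold change of -4.07 ± 0.90 (edgeR adjusted p = 0.0316) was -1.85 without GFP library 2. Lcn2 (lipocalin 2) stood at 14.6, 10.6 and 12.2 against 53.8, 182 and 41.6 CPM (-2.89 ± 0.50, edgeR adjusted p = 0.0106), and at a log2 fold change of -1.93 without GFP library 2. The call of Saa2 was lost without Activin A library 1, 2 or 3 (edgeR adjusted p up to 0.153). The call of Saa1 was lost without Activin A library 1, 2 or 3 (edgeR adjusted p up to 0.141). The call of Lcn2 was lost without Activin A library 1, 2 or 3 (edgeR adjusted p up to 0.0659). Fgb (-0.15 ± 0.23, edgeR adjusted p = 0.797) and Hp (-0.34 ± 0.17, edgeR adjusted p = 0.292) were not called. For the acute phase list the number of fallers was 1 without Activin A library 1, 2 or 3, while the number of risers was 1 without GFP library 2.

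Some collagens and proteases of the scar matrix fell. Col1a1 stood at 18.6, 16.7 and 19.9 CPM in Activin A livers, 62.6, 67.8 and 32.2 CPM in GFP livers and 9.3, 9.29 and 7.93 CPM in chow livers (-1.56 ± 0.24, edgeR adjusted p = 0.00678). Col1a2, the other chain of type I collagen, stood at 27.9, 23.9 and 25.1 CPM against 63.8, 64.3 and 40.6 CPM (-1.14 ± 0.17, edgeR adjusted p = 0.00595). GFP library 3 was the lowest GFP library for both chains. Col3a1, the type III chain, had -1.42 ± 0.23 (edgeR adjusted p = 0.0077). The call of Col3a1 was lost without Activin A library 1 or 3 (edgeR adjusted p up to 0.0515). Col27a1, a fibrillar collagen known from cartilage, rose from 34.6, 26.6 and 17.5 to 62.3, 61.8 and 59.3 CPM (1.22 ± 0.20, edgeR adjusted p = 0.00795). Of 26 collagens and crosslinking enzymes 7 fell and 1 rose, and the number of fallers was 3 without Activin A library 1 or 2 or GFP library 1, 2 without Activin A library 3, 4 without GFP library 2, and 12 without GFP library 3. Of 22 basement membrane genes 3 fell, the type IV collagen chains Col4a1 (-0.78 ± 0.15, edgeR adjusted p = 0.0183) and Col4a2 (-0.69 ± 0.12, edgeR adjusted p = 0.0125) and Col15a1 (-1.46 ± 0.33, edgeR adjusted p = 0.0324), and the number of fallers was 0 without Activin A library 1 or 3, and 1 without Activin A library 2. The call of Col4a1 was lost without Activin A library 1, 2 or 3 (edgeR adjusted p up to 0.105). The call of Col4a2 was lost without Activin A library 1 or 3 (edgeR adjusted p up to 0.0793). The call of Col15a1 was lost without Activin A library 1, 2 or 3 or GFP library 1 or 2 (edgeR adjusted p up to 0.141). Of 28 proteoglycan, elastic fibre and matricellular genes 5 fell, with Thbs1, which encodes the TGF-beta activator thrombospondin 1, at 1.53, 2.28 and 2.78 CPM against 9.85, 9.18 and 5.49 CPM (-1.9 ± 0.30, edgeR adjusted p = 0.00745); the number of fallers was 3 without Activin A library 1 or 2, 2 without Activin A library 3, and 8 without GFP library 3. Fn1 (0.011 ± 0.11, edgeR adjusted p = 0.976) and Dcn (-0.093 ± 0.13, edgeR adjusted p = 0.767) were not called.

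Of 18 metalloproteinases and inhibitors 5 fell and 0 rose. Mmp7 (matrilysin), made by bile duct epithelium, stood at 0, 0.286 and 0.302 CPM against 6.82, 8.74 and 2.42 CPM (-4.92 ± 0.70, edgeR adjusted p = 0.00487), and its log2 fold change was -4.32 without Activin A library 1. Mmp13, an interstitial collagenase, stood at 0.765, 0.514 and 0.302 CPM against 4.59, 3.33 and 3.17 CPM (-2.79 ± 0.38, edgeR adjusted p = 0.0042). The groups were separated for both proteases. Timp1, an inhibitor of them, had -1.89 ± 0.53 and was not called (edgeR adjusted p = 0.0702). For these proteases the number of fallers was 3 without Activin A library 1 or 2, and 10 without GFP library 3. Stellate cell and myofibroblast markers, the cells that make most scar collagen, had 1 faller (Pdgfrb, -0.56 ± 0.14, edgeR adjusted p = 0.045) and 0 risers of 20. That is 5.0% called, against 5.52% of all genes tested. The call of Pdgfrb was lost without Activin A library 1, 2 or 3 or GFP library 1 or 2 (edgeR adjusted p up to 0.196). Acta2, the myofibroblast actin, had -1.2 ± 0.31 (edgeR adjusted p = 0.0521), while Lrat (-0.45 ± 0.23, edgeR adjusted p = 0.328) and Des (-0.043 ± 0.23, edgeR adjusted p = 0.949), which mark stellate cells, were not called. In the stellate list the number of risers was 1 without GFP library 3, while the number of fallers was 0 without Activin A library 1, 2 or 3 or GFP library 1 or 2, and 4 without GFP library 3, and DESeq2 called 3 lower and 1 higher. The list summed to 495 to 551 CPM in Activin A libraries, 463 to 519 CPM in GFP libraries and 296 to 371 CPM in chow libraries.

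Genes of biliary and injured epithelium were among the deepest fallers. Ly6d, a surface antigen of stressed hepatocytes and bile duct cells, stood at 3.28, 4.0 and 4.83 CPM in Activin A libraries, 78.4, 107 and 37.9 CPM in GFP libraries and 0.0608, 0.302 and 0.552 CPM in chow libraries (-4.21 ± 0.36, edgeR adjusted p = 0.000539). Sprr1a, a small proline-rich stress protein of epithelia, had 1 count over the 3 Activin A libraries and 224 over the 3 GFP libraries, at 5.26, 4.15 and 1.08 CPM in the latter (edgeR adjusted p = 0.0042). Ehf, an epithelial ETS factor, stood at 0.71, 1.14 and 0.846 against 3.3, 6.33 and 3.66 CPM (-2.29 ± 0.36, edgeR adjusted p = 0.00743), and Prom1 (CD133), a progenitor marker, at 0.874, 0.685 and 1.03 against 3.79, 5.46 and 2.64 CPM (-2.2 ± 0.36, edgeR adjusted p = 0.00817). No Activin A library reached the level of a GFP library in any of them. Of 17 biliary genes 6 fell and 0 rose (median -1.3), and the keratins Krt19 (-1.2 ± 0.45, edgeR adjusted p = 0.168) and Krt7 (-1.3 ± 0.39, edgeR adjusted p = 0.087) and the duct factor Sox9 (0.46 ± 0.28, edgeR adjusted p = 0.42) were not called. All 20 biliary genes with counts, tested or not, summed to 140.2 to 149 CPM in Activin A libraries, 259 to 523 CPM in GFP libraries and 141 to 162 CPM in chow libraries, much of it Spp1, which is also in the macrophage list. For the biliary list the number of fallers was 11 without GFP library 3, while the number of risers was 1 without GFP library 2 or 3.

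Raet1e, a stress ligand of the NKG2D receptor, stood at 0.71, 0.514 and 0.544 CPM against 9.54, 7.29 and 7.96 CPM (-3.79 ± 0.26, edgeR adjusted p = 0.000192). It shares its locus with near-identical Raet1 and H60 genes, so its reads are uncertain. Anxa5, a phosphatidylserine-binding annexin, stood at 132, 143 and 142 CPM against 369.8, 334 and 223 CPM (-1.15 ± 0.17, edgeR adjusted p = 0.00552). Of 18 genes of hepatocyte injury and dedifferentiation 8 fell and 0 rose, though some are shared with the biliary list, and the number of fallers was 5 without Activin A library 1 or 2, and 4 without Activin A library 3, while the number of risers was 1 without GFP library 3. Ephb2, an ephrin receptor among the deepest fallers, stood at 0.929, 1.2 and 0.785 CPM against 17.3, 8.07 and 13 CPM (-3.71 ± 0.33, edgeR adjusted p = 0.000651). Of 27 cell cycle genes 3 fell (11.1%, against 3.86% of all genes tested) and 0 rose. Cdc20, an activator of the anaphase-promoting complex, fell by 2.37 ± 0.37 (edgeR adjusted p = 0.00725) and overlaps Elovl1 on the opposite strand, while Mki67 (-0.66 ± 0.20, edgeR adjusted p = 0.0995) was not called; the number of fallers was 1 without Activin A library 1, 2 or 3 or GFP library 1 or 2, and 7 without GFP library 3. Of 20 p53 target genes 1 rose, the cell cycle inhibitor gene Cdkn1a (0.85 ± 0.20, edgeR adjusted p = 0.0432), and 2 fell, with Btg2 at -0.89 ± 0.14 (edgeR adjusted p = 0.0077). The call of Cdkn1a was lost without Activin A library 1 or 3 or GFP library 1 or 2 (edgeR adjusted p up to 0.169). For p53 targets the number of risers was 0 without Activin A library 1 or 3 or GFP library 1 or 2, while the number of fallers was 1 without Activin A library 2 or 3.

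Cytochrome P450 enzymes of hepatocytes fell in 11 of 41 cases and rose in 2. Cyp2c54 stood at 3.66, 5.71 and 4.89 CPM in Activin A libraries against 21.8, 76.7 and 134 CPM in GFP libraries, where library 3 was the highest, and 269, 272 and 320.1 CPM on chow (-4.03 ± 0.57, edgeR adjusted p = 0.00482; log2 fold change -3.37 without GFP library 3). Cyp2a22 stood at 6.39, 5.48 and 6.7 against 39.1, 30.7 and 24.4 CPM (-2.34 ± 0.18, edgeR adjusted p = 0.00039). Cyp2f2, a naphthalene-oxidising enzyme of periportal hepatocytes, stood at 220.5, 332 and 282 against 629, 629 and 665 CPM (-1.21 ± 0.15, edgeR adjusted p = 0.00224). All 3 were separated between the groups. Cyp2c67 and Cyp2c38 had log2 fold changes of -1.16 ± 0.14 and -1.25 ± 0.16 (edgeR adjusted p = 0.00239 and 0.00297). Members of the Cyp2a, Cyp2c and Cyp4a families are near-identical, so reads may be shared among them. Cyp1a2 had 0.49 ± 0.11 (edgeR adjusted p = 0.0289) and Cyp2u1 0.85 ± 0.18 (edgeR adjusted p = 0.0279), the 2 risers. The call of Cyp1a2 was lost without Activin A library 1, 2 or 3 or GFP library 1 (edgeR adjusted p up to 0.136). The call of Cyp2u1 was lost without Activin A library 1, 2 or 3 or GFP library 1 or 2 (edgeR adjusted p up to 0.13). Cyp3a11 (0.32 ± 0.14, edgeR adjusted p = 0.24) and Cyp2e1 (0.49 ± 0.17, edgeR adjusted p = 0.132), major drug- and ethanol-oxidising enzymes, were not called. Among the P450 genes the number of fallers was 7 without Activin A library 1, while the number of risers was 0 without Activin A library 1, 2 or 3 or GFP library 1, and 6 without GFP library 3.

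Conjugating enzymes, which make lipophilic compounds soluble, fell in 8 of 39 cases and rose in 1. The sulfotransferase gene Sult1a1 stood at 63.8, 62.7 and 67.5 CPM against 169, 237 and 209 CPM (-1.67 ± 0.13, edgeR adjusted p = 0.000399); it overlaps Sgf29 on the opposite strand. Ugt1a9, one of the glucuronosyltransferases that share exons at the Ugt1a locus, stood at 5.19, 5.65 and 4.47 CPM against 35.9, 25.8 and 19.9 CPM (-2.41 ± 0.22, edgeR adjusted p = 0.000706), while Ugt1a1 from the same locus had 0.34 ± 0.11 (edgeR adjusted p = 0.103). The groups were separated for both fallers. Hmox1, the inducible heme oxygenase, had -1.09 ± 0.22 (edgeR adjusted p = 0.0224), and Nqo1, another NRF2 target, -0.20 ± 0.23 (edgeR adjusted p = 0.695). The call of Hmox1 was lost without Activin A library 3 or GFP library 2 (edgeR adjusted p up to 0.0776). Among conjugation genes the number of fallers was 3 without Activin A library 1 or 2, and 2 without Activin A library 3 or GFP library 2, while the number of risers was 0 without Activin A library 1, 2 or 3, and 2 without GFP library 3.

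Of 35 solute carriers 5 rose and 1 fell. Beside Slc13a4 and Slc13a3, Slc17a2 (0.79 ± 0.14, edgeR adjusted p = 0.011), Slc16a13 (1.07 ± 0.23, edgeR adjusted p = 0.0268) and Slc46a3 (0.61 ± 0.13, edgeR adjusted p = 0.0234) were called higher. The organic anion carrier Slco1a1, a male-biased gene, stood at 19.2, 30.2 and 23.9 CPM against 48.8, 137 and 297 CPM, with library 3 the highest of the GFP libraries and 583, 642 and 569 CPM on chow (-2.72 ± 0.52, edgeR adjusted p = 0.017; log2 fold change -1.92 without GFP library 3). The call of Slc17a2 was lost without Activin A library 1 or 3 (edgeR adjusted p up to 0.0639). The call of Slc16a13 was lost without Activin A library 1, 2 or 3 or GFP library 1 or 2 (edgeR adjusted p up to 0.123). The call of Slc46a3 was lost without Activin A library 1, 2 or 3 or GFP library 2 (edgeR adjusted p up to 0.107). The call of Slco1a1 was lost without Activin A library 1, 2 or 3 (edgeR adjusted p up to 0.0984). Among solute carriers the number of risers was 2 without Activin A library 1 or 3, and 3 without Activin A library 2, while the number of fallers was 0 without Activin A library 1, 2 or 3, 2 without GFP library 1 or 2, and 3 without GFP library 3.

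**Figure D4:**
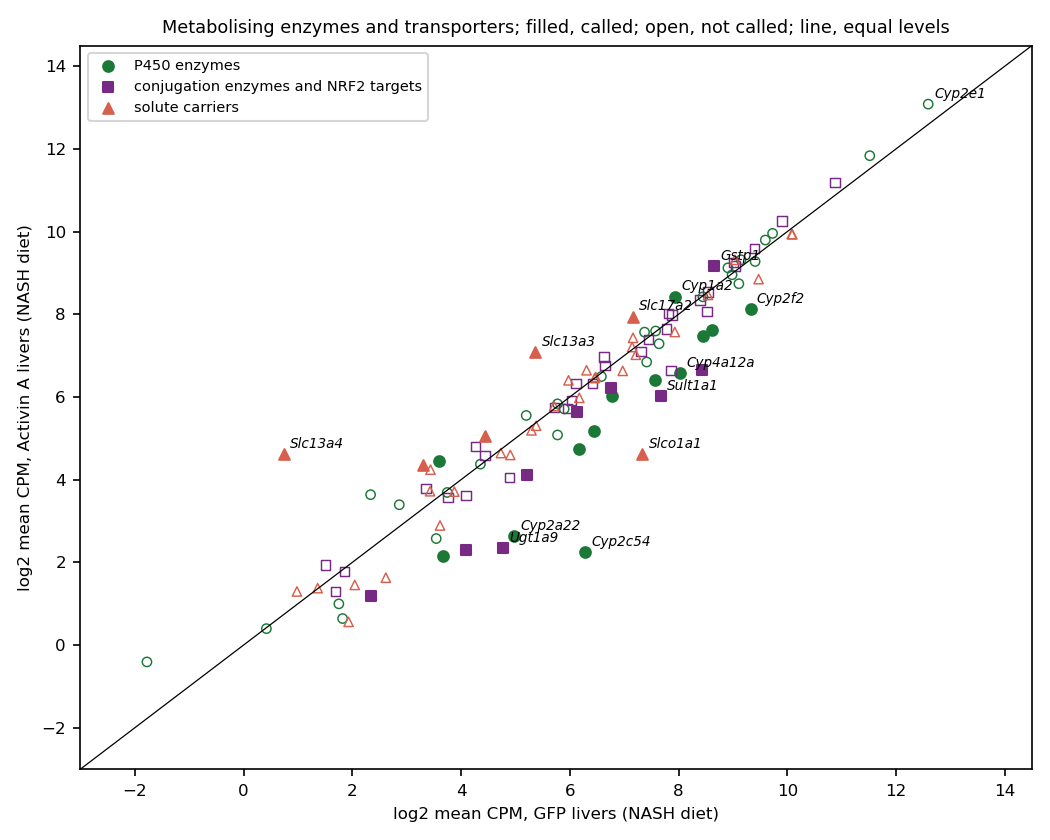
Log2 of mean CPM in Activin A livers (vertical axis) against GFP livers on the NASH diet (horizontal axis) for P450 enzymes (circles), conjugation enzymes and NRF2 targets (squares) and solute carriers (triangles); filled symbols were called, open ones not, and the line marks equal levels. Slc13a4 lies farthest above the line (3.87 ± 0.22 log2 units) and Cyp2c54 farthest below it (-4.03 ± 0.57 log2 units).

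Growth hormone pulses set the sex-biased expression of many liver genes. Of 29 genes of this axis 3 rose and 9 fell, counted without a split by the direction of sex bias. The male-biased Cyp4a12a stood at 90.1, 104 and 93.6 CPM against 199, 245 and 342 CPM (-1.45 ± 0.18, edgeR adjusted p = 0.00247), and the male-biased Serpina1e at 1608, 1572 and 1545 CPM against 539, 633 and 846 CPM (1.23 ± 0.16, edgeR adjusted p = 0.00292), in the opposite direction. Cyp17a1, a steroid hydroxylase, stood at 18.7, 15 and 15.6 CPM against 54, 44.3 and 37.5 CPM (-1.46 ± 0.15, edgeR adjusted p = 0.00113). Each of the 3 genes was separated between groups. Selenbp2 fell by 0.96 ± 0.14 (edgeR adjusted p = 0.00477). The signalling genes Ghr (0.24 ± 0.10, edgeR adjusted p = 0.217), Stat5b (-0.12 ± 0.094, edgeR adjusted p = 0.56) and Igf1 (0.42 ± 0.12, edgeR adjusted p = 0.0719) were not called. For this axis the number of risers was 6 without GFP library 3, and the number of fallers was 5 without Activin A library 1, 2 or 3.

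Major urinary proteins, pheromone carriers secreted by male liver, form a family of near-identical genes whose reads cannot be assigned with certainty. By family name, and so chosen after values were seen, 8 of 19 Mup genes tested fell and 0 rose, and 18 had a log2 fold change below 0. Mup7 stood at 40.6, 68.9 and 47.9 CPM against 211, 1553 and 2104 CPM (-4.62 ± 0.70, edgeR adjusted p = 0.00618), and Mup12 at 20.8, 44.4 and 11.8 CPM against 106, 1039 and 883 CPM (-4.72 ± 0.79, edgeR adjusted p = 0.0094; log2 fold change -5.38 without Activin A library 2). The call of Mup12 was lost without Activin A library 1 or 3 (edgeR adjusted p up to 0.0653). Mup20 (darcin) stood at 1111, 1194 and 1095 CPM against 1929, 2069 and 1863 CPM (-0.79 ± 0.10, edgeR adjusted p = 0.00281). Summed over the family, the level was 2856, 3043 and 2846 CPM in Activin A livers, 4444, 9976 and 11628 CPM in GFP livers and 42161, 38791 and 52801 CPM in chow livers. The GFP libraries differed more among themselves than the Activin A libraries did, and GFP library 1 was the lowest of the 3.

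Genes of fat storage moved in both directions. Of 20 lipid droplet proteins 3 fell and 0 rose (15.0% called, against 5.52% of all genes tested); Plin3, a droplet coat protein, had -0.60 ± 0.089 (edgeR adjusted p = 0.00588), and the number of fallers was 1 without Activin A library 1, 2 or 3, while the number of risers was 5 without GFP library 3. Of 26 genes of fatty acid uptake and triglyceride assembly 2 rose and 2 fell (15.4%), and the number of risers was 1 without Activin A library 1, 2 or 3, while the number of fallers was 1 without Activin A library 2 or 3. Agpat2, an acyltransferase of triglyceride synthesis, rose from 206, 204 and 189 to 348, 302 and 341 CPM (0.73 ± 0.10, edgeR adjusted p = 0.00441), and overlaps Egfl7 on the opposite strand. Dgat2, which makes the last step, had 0.53 ± 0.096 (edgeR adjusted p = 0.0127); Fabp5, a fatty acid binding protein of macrophages, fell by 1.25 ± 0.19 (edgeR adjusted p = 0.00665), and the fatty acid translocase gene Cd36 had -0.69 ± 0.12 (edgeR adjusted p = 0.0103). The call of Dgat2 was lost without Activin A library 1, 2 or 3 (edgeR adjusted p up to 0.0914). The call of Cd36 was lost without Activin A library 2 or 3 (edgeR adjusted p up to 0.0809). Among 25 lipogenic genes Srebf1, the regulator of fat synthesis, had 1.19 ± 0.24 (edgeR adjusted p = 0.0193) and G6pdx -0.81 ± 0.20 (edgeR adjusted p = 0.0485), while Fasn (0.70 ± 0.60, edgeR adjusted p = 0.59) and Scd1 (0.49 ± 0.23, edgeR adjusted p = 0.28) were not called. The call of Srebf1 was lost without Activin A library 1, 2 or 3 (edgeR adjusted p up to 0.0878). The call of G6pdx was lost without Activin A library 1, 2 or 3 or GFP library 1 or 3 (edgeR adjusted p up to 0.195). These were the only calls of the lipogenic list (8.0%), in which the number of risers was 0 without Activin A library 1, 2 or 3, and 2 without GFP library 1 or 3, while the number of fallers was 0 without Activin A library 1, 2 or 3 or GFP library 1, and 2 without GFP library 3.

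Of 33 PPARA targets 3 rose and 2 fell. Acot3, a peroxisomal thioesterase, rose from 19.5, 18.8 and 21 to 31.5, 30.2 and 30.4 CPM (0.63 ± 0.1, edgeR adjusted p = 0.00745), and the oxidation gene Cpt1a (-0.094 ± 0.17, edgeR adjusted p = 0.829) was not called. For PPARA targets the number of risers was 1 without Activin A library 1, 2 or 3 or GFP library 2, and 6 without GFP library 3, while the number of fallers was 1 without Activin A library 1 or 2, 0 without Activin A library 3, 5 without GFP library 1, and 4 without GFP library 2 or 3, so that fallers outnumbered risers without GFP library 1 or 2. No gene of cholesterol synthesis passed the edgeR test among 27. DESeq2 called 3 of them and limma-voom 0, and 4 had an unadjusted edgeR p under 0.05. For these the number of risers was 1 without GFP library 1 or 3, while the number of fallers was 1 without GFP library 2, and 6 without GFP library 3. In sterol and bile acid handling 2 of 27 rose and 2 fell. The sterol exporter genes Abcg5 and Abcg8, head-to-head neighbours that overlap, rose together, with Abcg8 at 259, 332 and 277 CPM against 134, 155 and 179 CPM (0.89 ± 0.14, edgeR adjusted p = 0.00732) and Abcg5 at 0.80 ± 0.14 (edgeR adjusted p = 0.0105). The call of Abcg5 was lost without Activin A library 2 or 3 (edgeR adjusted p up to 0.061). For sterol and bile acid genes the number of risers was 1 without Activin A library 2 or 3, and 4 without GFP library 3, while the number of fallers was 1 without Activin A library 1, 2 or 3. Akr1d1, a steroid reductase of bile acid synthesis, fell from 84.2, 81.5 and 86.5 to 44.1, 56.9 and 43.1 CPM (-0.81 ± 0.12, edgeR adjusted p = 0.00588), and Cyp7a1, the rate-limiting enzyme, had 0.26 ± 0.26 (edgeR adjusted p = 0.652). Of 25 apolipoprotein and lipoprotein enzyme genes 2 fell, the Apol9 pair given above, and 0 rose (8.0% called, against 5.52% of all genes tested). Apob had 0.014 ± 0.13 (edgeR adjusted p = 0.973), and the number of risers in this list was 1 without GFP library 2, and 5 without GFP library 3.

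Amino acid catabolism held 2 fallers of 33 (6.06% called, against 5.52% of all genes tested). They were Bhmt, the betaine-dependent methyltransferase of homocysteine (-1.63 ± 0.30, edgeR adjusted p = 0.0144), and Gpt2 (-0.49 ± 0.095, edgeR adjusted p = 0.0172). The call of Bhmt was lost without Activin A library 1, 2 or 3 (edgeR adjusted p up to 0.0809). The call of Gpt2 was lost without Activin A library 1, 2 or 3 (edgeR adjusted p up to 0.121). In this list the number of risers was 3 without GFP library 3, while the number of fallers was 0 without Activin A library 1, 2 or 3, 5 without GFP library 1, and 4 without GFP library 3. Of 18 pericentral hepatocyte genes 2 rose (Cyp1a2 and Lect2, given above with the libraries on which their calls depended) and 1 fell, the latter being the ammonia transporter gene Rhbg, at 0.546, 0.4 and 0.544 CPM against 2.81, 2.42 and 1.99 CPM (-2.27 ± 0.36, edgeR adjusted p = 0.00755), while Glul, which defines the pericentral zone, had 0.34 ± 0.12 (edgeR adjusted p = 0.133). For pericentral genes the number of risers was 0 without Activin A library 1, 2 or 3, 1 without GFP library 1, and 6 without GFP library 3, while the number of fallers was 2 without GFP library 2. Of 21 immediate early genes 7 fell and 0 rose, with Klf6 at 17.4, 16.4 and 13.5 CPM against 44, 42.4 and 30.01 CPM (-1.3 ± 0.16, edgeR adjusted p = 0.00247) and the stress factor Atf3 at 2.89, 3.54 and 2.54 CPM against 9.41, 8.84 and 9.2 CPM (-1.61 ± 0.20, edgeR adjusted p = 0.00226). For these genes the number of fallers was 3 without Activin A library 1 or 3 or GFP library 2. Of 21 integrated stress response genes 2 rose, Fgf21 (given above) and Chac1, a glutathione-degrading enzyme (1.52 ± 0.33, edgeR adjusted p = 0.0279), and 2 fell, Atf3 and Psat1, an enzyme of serine synthesis (-1.09 ± 0.25, edgeR adjusted p = 0.0366). Atf4 itself had 0.033 ± 0.098 (edgeR adjusted p = 0.906). The call of Chac1 was lost without Activin A library 1, 2 or 3 or GFP library 1 (edgeR adjusted p up to 0.112). The call of Psat1 was lost without Activin A library 1, 2 or 3 or GFP library 1 or 2 (edgeR adjusted p up to 0.152). In the stress response list the number of risers was 0 without Activin A library 1, 2 or 3 or GFP library 1, and 1 without GFP library 2, while the number of fallers was 1 without Activin A library 1, 2 or 3, and 4 without GFP library 3. No edgeR or limma-voom call was made among 23 endoplasmic reticulum chaperones, 17 heat shock genes, 30 nuclear genes of the respiratory chain and 13 mitochondrially encoded transcripts. Their medians were 0.011, -0.018, 0.076 and 0.23, respectively. An unadjusted edgeR p under 0.05 was found for 2, 3, 0 and 2 of them, and DESeq2 called 2 heat shock genes and none of the other 3 lists. For heat shock genes the number of risers was 1 without GFP library 2 or 3, while the number of fallers was 1 without GFP library 3. Among chaperones the number of fallers was 2 without GFP library 3, and among mitochondrial transcripts the number of risers was 3 without GFP library 3.

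Markers of the tissue's other cells give the frame for these lists. Hepatocyte markers held 1 riser, Ttr, and 0 fallers of 16 (6.25% called, against 5.52% of all genes tested), with Alb at 0.14 ± 0.11 (edgeR adjusted p = 0.56). In this list the number of risers was 2 without GFP library 2, and 5 without GFP library 3, while the number of fallers was 1 without GFP library 3, and 4 rose with DESeq2 and 5 with no filter on low counts. They summed to 96365 to 99521 CPM in Activin A libraries, 73443 to 91696 CPM in GFP libraries and 110238 to 143647 CPM in chow libraries. Endothelial markers held 1 riser (Clec4g, 0.43 ± 0.10, edgeR adjusted p = 0.0389) and 1 faller of 22 (9.09% called, against 5.52% of all genes tested). The faller was Lyve1, the hyaluronan receptor of sinusoidal and lymphatic endothelium, which stood at 8.41, 5.65 and 7.49 CPM against 25.7, 19.5 and 14.3 CPM (-1.47 ± 0.23, edgeR adjusted p = 0.00721). Stab2 had 0.20 ± 0.17 (edgeR adjusted p = 0.59). The call of Clec4g was lost without Activin A library 1, 2 or 3 or GFP library 2 (edgeR adjusted p up to 0.151). For endothelial markers the number of risers was 0 without Activin A library 1, 2 or 3 or GFP library 2, and 2 without GFP library 3. The endothelial list summed to 658 to 723 CPM in Activin A libraries, 579 to 719.5 CPM in GFP libraries and 411 to 517 CPM in chow libraries. Of 13 lymphocyte markers tested 1 fell, Ccl5 (-1.67 ± 0.34, edgeR adjusted p = 0.0202), or 7.69% called against 5.52% of all genes tested. None of the T and B cell receptor genes Cd3g (-0.071 ± 0.59, edgeR adjusted p = 0.969), Cd8a (-1.39 ± 0.58, edgeR adjusted p = 0.215) and Cd79a (0.51 ± 0.38, edgeR adjusted p = 0.531) was called. The call of Ccl5 was lost without Activin A library 1, 2 or 3 or GFP library 2 (edgeR adjusted p up to 0.0925). For lymphocyte markers the number of risers was 1 without GFP library 3, while the number of fallers was 0 without Activin A library 1, 2 or 3 or GFP library 2. All 21 lymphocyte markers with counts, tested or not, summed to 204 to 212 CPM in Activin A libraries, 181 to 265 CPM in GFP libraries and 232 to 318 CPM in chow libraries. Neutrophil markers numbered 4 tested with no call, S100a8 being at -2.01 ± 0.56 (edgeR adjusted p = 0.0723). Of these 4, 3 had an unadjusted edgeR p under 0.05, and DESeq2 called 1 and limma-voom 0. All 11 neutrophil markers with counts, tested or not, summed to 2.84 to 5.71 CPM in Activin A libraries, 8.39 to 9.54 CPM in GFP libraries and 1.79 to 2.87 CPM in chow libraries. Markers of pancreas, adipose tissue, muscle and red cells held no call among 9 tested. Of these 9, 2 had an unadjusted edgeR p under 0.05, and DESeq2 called 1 and limma-voom 0. All 17 such markers with counts, tested or not, summed to 117 to 126 CPM in Activin A libraries, 118 to 177 CPM in GFP libraries and 144 to 188 CPM in chow libraries. For this last list the number of fallers was 2 without GFP library 2. The part of these cell types in the results above was not tested.

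The antibody transcripts Ighg1 and Igkc were called higher, and antibody genes as a family were not counted. Ighg1, the heavy chain of the IgG1 class, stood at 10.4, 2.17 and 5.62 CPM against 0.357, 0.29 and 0.108 CPM (4.52 ± 0.64, edgeR adjusted p = 0.00482), and its log2 fold change was 3.89 without Activin A library 1. Every Activin A library was above every GFP library. Igkc (kappa light chain) and Ighm (IgM heavy chain), named after their values were seen, stood at 40.8, 42.3 and 45.7 against 20.8, 8.74 and 24 CPM (1.27 ± 0.29, edgeR adjusted p = 0.0342) and at 75, 92.5 and 84.6 against 36.2, 15.3 and 51.7 CPM (1.29 ± 0.33, edgeR adjusted p = 0.0544), so that Ighm was not called. The call of Igkc was lost without Activin A library 1, 2 or 3 or GFP library 1 (edgeR adjusted p up to 0.13). Jchain, which joins IgM and IgA chains in plasma cells, had 1.09 ± 0.30 (edgeR adjusted p = 0.0694).

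The number of genes called was counted under each alternative and with each library left out.

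**Figure D5:**
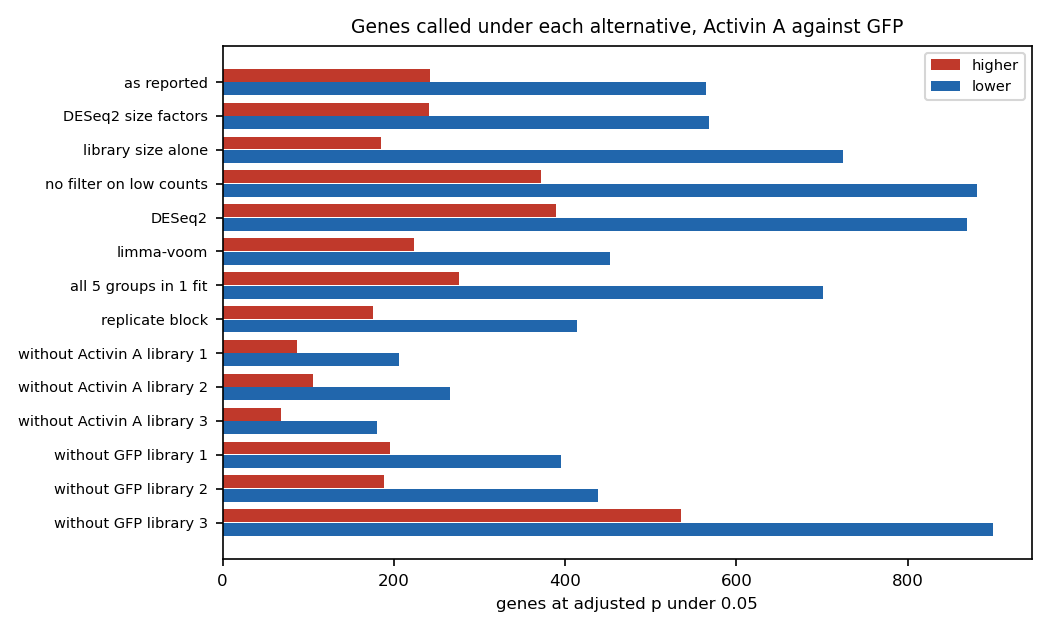
Number of genes called higher (red) and lower (blue) in Activin A against GFP livers (horizontal axis, adjusted p under 0.05) as reported, under each alternative and with each library left out. Lower calls outnumber higher ones in every row, from 68 and 180 without Activin A library 3 to 535 and 900 without GFP library 3.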

How the data were processed

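Poly(A)-selected, stranded libraries (TruSeq) were made from liver RNA, per the labels' protocols. The table used holds whole-number counts per gene that the authors did not normalize, per the file headers. The authors also deposited FPKM values, scaled counts per gene (signal), log2 fold changes and p-values, per the file headers; these were not used. The genome was GRCm38 (mm10), per the submitters' processing notes. The sources used here name no aligner, counter, strand setting or annotation release, so genes that overlap another (62 of 189 named under the rule) and members of near-identical families are uncertain.

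The Activin A table held 24357 genes, and 22 symbols that had become dates were restored from the gene identifier. After filterByExpr (minimum count 10) and TMM scaling, genes were tested with edgeR 4.0.16 (quasi-likelihood) in R 4.3.3 over the 6 libraries, with Benjamini-Hochberg adjustment over all genes tested and two-sided p-values. The SE is the log2 fold change divided by the square root of F. CPM were scaled with TMM factors over all 15 libraries, joined across tables. Any 2 libraries of a group differed beyond sampling noise (chi-square over its degrees of freedom, 5.54 or more), so none was counted as a copy. Since the labels name no separate animals, p-values reflect only how far these libraries differ, which may be technical. On simulated counts, edgeR recovered 58 of 97 genes changed by a log2 fold change of 1 and 90 of 93 changed by 2, with 15 false calls, among 14294 genes.

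Alternatives were DESeq2 1.42.0 size factors and its Wald test, limma 3.58.1 voom, library size alone, no filter, all 5 groups in 1 fit, a replicate block and each library left out. The 54 gene lists and the members were chosen with earlier results of these data known. Genes named were Inhba; the 10 called genes highest and the 10 lowest in log2 fold change, given a plain symbol, no overlap of groups and mean log2 CPM from 1 upwards; the 10 called genes with the smallest p in each direction; called members of the lists, at most 6 per direction; and list members that were not called, with their values. Not every gene under the rule is named, and a few are not reported here. Promoter sequences came from a RefSeq table (GRCm38.p6).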

Additional observations from a re-analysis of the deposited data

How the results depend on the processing

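The rise of Inhba kept its direction and passed the threshold under every alternative run. The 806 calls (242 higher, 564 lower) became 1253 without a filter on low counts (372 higher, 881 lower) and 1258 with DESeq2 (389 higher, 869 lower). Under DESeq2 size factors, library size alone, limma-voom and all 5 groups in 1 fit the totals were 809, 909, 675 and 977. With 1 library left out they ranged from 248 to 1435, with 68 to 535 higher and 180 to 900 lower; the cause was not tested, and such fits hold fewer libraries. No gene named by the rule changed sign under an alternative, and 109 of the 189 remained called with each library left out. Of these 189 calls, 75, 69 and 62 were lost without Activin A libraries 3, 1 and 2, and 1, 27 and 36 without GFP libraries 3, 1 and 2. limma-voom lost 20, all 5 groups in 1 fit 19, library size alone 5 and DESeq2 1.

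Libraries with the same replicate number did not deviate together (correlations of -0.12, -0.055 and 0.037), so the numbers are not read as pairs. With the replicate block 590 genes were called, 176 higher and 414 lower, and 27 of the 189 calls were lost. No library correlated best with its own number, though Activin A library 3 came close (0.0378 with GFP library 2 and 0.0374 with GFP library 3).

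Depth of 16331973 to 20530242 counts limits genes such as Sprr1a, with 1 count over the Activin A libraries, for which no fold is given. A gene that was not called is not shown to be equal between groups, and 2927 genes had an unadjusted p under 0.05.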
